A study of Homo sapiens with 2 samples.

Results

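The cadherins and protocadherins were taken as every gene of the deposited gene tables whose symbol is CDH followed by digits alone or begins with PCDH, with the Y chromosome left out, which gave 92 of the 23352 genes listed. They comprise 5 type I cadherins, 13 type II cadherins, 5 other cadherins, 12 protocadherins outside the clusters, and 57 clustered protocadherins of chromosome 5, of which 15 are alpha, 19 beta and 23 gamma genes. Cadherins are single-pass membrane proteins whose extracellular repeats bind calcium and one another across cell contacts, and the classical members hold the actin skeleton through catenins at their inner tails. Protocadherins carry more repeats and tails of their own, and many are best known from the developing nervous system. In the alpha and gamma clusters each gene contributes its own large first exon, and all genes of the cluster are spliced to the same few last exons. Neurons use different sets of these first exons, which give each cell its own surface identity.

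The measurements were poly(A) RNA-seq of A673, an established Ewing sarcoma line, carrying either of 2 lentiviral hairpins. The first is sh813, a Sigma Mission shRNA against the transcription factor RUNX3, and the second is a non-target shRNA (shNT). All cells of either kind had been exposed to virus from HEK 293T cells with 6 µg/mL polybrene and kept in 0.4 µg/mL puromycin for 6 days. A single RUNX3 hairpin was used, each library was titled as a pool, and each group holds 1 library, so the differences below are described without a test. Of each library, GEO's title names the opposite hairpin to the shRNA characteristic. The cells are therefore called by their titles, 813-titled and NT-titled, and going by the characteristics instead would turn every direction round. RUNX3 itself had 387 pairs in 813-titled cells, against 1391 in NT-titled cells (log2 fold -1.92, 95% counting interval -2.09 to -1.76).

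No deposited gene count was odd, so counts were halved to read pairs, which summed to 23342660 pairs in 813-titled cells and 24326135 in NT-titled cells. Levels are given as pairs or as CPM, pairs per 1000000 pairs after scaling for library composition. The log2 fold is 813-titled cells over NT-titled cells, with an exact 95% binomial interval that covers counting error only. Measured genes are those that reach 1 CPM in either library. A gene is called where the difference is 2-fold or greater and the whole interval lies beyond 1.5-fold. Of 12254 genes measured, 996 (8.13%) were called higher and 427 (3.48%) lower in 813-titled cells, a split that became 1330 and 302 when scaling by plain totals. The markers of Ewing sarcoma were measured for 8 of 8 genes, with summed levels of 6650 CPM in 813-titled cells and 6033 CPM in NT-titled cells. These came mostly from CD99, at 4026 and 3808 CPM, and CCND1, at 1834.5 and 1193.5 CPM. The log2 fold was above 0 for 5 of the 8, and NKX2-2 (log2 fold -1.43) and NR0B1 (-1.11) were called lower. Over all genes, GC content and gene length together took up 15.4% of the variance of the log2 folds as a smooth trend, and values with that trend removed are given where they change a call. With plain totals NR0B1 was at -0.97, and with the trend removed at -0.74, and it was called under neither.

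The clustered genes are told apart by sequence at the joint between their own exon and the shared exons, so this joint is shown for the genes that the counts turn on. Each line gives the last 24 bases of the gene's own exon in lower case and the first 24 bases of the shared exons in capitals, from GENCODE release 29 transcripts, 5′ to 3′.
PCDHGC3: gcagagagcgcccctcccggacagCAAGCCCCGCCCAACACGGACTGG
PCDHGB5: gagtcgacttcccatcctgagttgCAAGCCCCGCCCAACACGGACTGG
PCDHGA11: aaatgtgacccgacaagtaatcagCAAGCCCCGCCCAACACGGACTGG
PCDHGA6: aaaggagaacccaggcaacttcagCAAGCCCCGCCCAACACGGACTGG
PCDHAC2: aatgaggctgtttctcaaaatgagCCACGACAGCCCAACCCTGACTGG
PCDHA6: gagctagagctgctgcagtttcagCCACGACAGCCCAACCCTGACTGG
The capitals were the same in every gamma line and the same in both alpha lines. Over the first shared exons, of 59 and 89 bases, the transcripts of 22 of 22 gamma genes and of 15 of 15 alpha genes had identical bases. Only the own exon can tell the genes of a cluster apart, and the beta genes have no shared exon of this kind. For PCDHA6, PCDHA7 and PCDHA8, 68.3%, 68.9% and 68.0% of 50-base words of the longest transcript occur in other genes. These words include those of the shared exons, and how far own exons repeat one another was not measured separately.

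The upstream sequence of 5 of these genes is shown because each carries its own promoter. Many promoters of clustered protocadherins, though not all, are known to carry a conserved element with a CGCT core, which is linked to the binding of CTCF. The letters CGCTG alone do not mark that element. Whether the stretches in capitals below belong to it, those of PCDHAC2 included, was not tested. The 250 bases before the RefSeq start (GRCh38.p14) are given in lower case with CGCTG in capitals, or CAGCG where it lies on the other strand.
PCDHGC3, chr5:141475716-141475965, plus strand: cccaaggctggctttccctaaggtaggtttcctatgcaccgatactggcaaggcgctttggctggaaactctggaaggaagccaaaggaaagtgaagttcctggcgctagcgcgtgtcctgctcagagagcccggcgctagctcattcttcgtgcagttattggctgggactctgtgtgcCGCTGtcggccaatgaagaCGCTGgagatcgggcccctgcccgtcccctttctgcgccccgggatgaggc
PCDHGB5, chr5:141397697-141397946, plus strand: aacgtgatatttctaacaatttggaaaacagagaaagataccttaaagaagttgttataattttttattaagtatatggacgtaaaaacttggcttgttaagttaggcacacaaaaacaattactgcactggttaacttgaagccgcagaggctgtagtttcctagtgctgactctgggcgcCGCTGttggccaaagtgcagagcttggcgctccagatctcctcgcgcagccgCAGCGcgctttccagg
PCDHGA11, chr5:141420801-141421050, plus strand: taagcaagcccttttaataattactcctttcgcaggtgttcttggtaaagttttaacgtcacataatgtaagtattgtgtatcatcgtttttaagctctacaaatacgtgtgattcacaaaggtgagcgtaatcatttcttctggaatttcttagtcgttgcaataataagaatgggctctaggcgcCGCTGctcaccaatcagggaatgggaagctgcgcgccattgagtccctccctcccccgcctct
PCDHGA6, chr5:141373641-141373890, plus strand: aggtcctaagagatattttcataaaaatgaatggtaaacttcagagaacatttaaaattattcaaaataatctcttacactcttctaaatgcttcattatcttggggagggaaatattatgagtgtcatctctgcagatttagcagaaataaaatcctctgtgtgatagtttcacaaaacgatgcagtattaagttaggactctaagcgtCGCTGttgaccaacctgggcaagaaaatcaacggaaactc
PCDHAC2, chr5:140966226-140966475, plus strand: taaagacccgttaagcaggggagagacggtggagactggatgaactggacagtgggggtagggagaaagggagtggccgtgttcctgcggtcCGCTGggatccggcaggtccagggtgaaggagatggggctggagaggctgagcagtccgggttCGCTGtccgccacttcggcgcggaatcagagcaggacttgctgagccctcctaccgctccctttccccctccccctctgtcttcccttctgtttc
Where a gene had several starts, as PCDHGB5 with 2, the most upstream was used. Promoters were matched by symbol for 69 of the 92 members. CGCTG was found on either strand in 40 of 47 clustered promoters (85.1%), against 14313 of all 35116 promoters of this length (40.8%). Its share was 20 of 20 in the gamma cluster, 11 of 14 in the beta cluster and 9 of 13 in the alpha cluster, and the 5 letters were chosen after the words of these promoters had been inspected. The letters TGTGGT, a core that RUNX proteins are known to bind, were found on either strand in 11 of 69 member promoters (15.9%), against 11.0% of all promoters. None of the 8 called members had TGTGGT in this window.

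Of the 92 members, 43 were measured, 45 had pairs but stayed below 1 CPM with at most 23 pairs in either library, and 4 (PCDH15, CDH9, CDH18 and CDH19) had no pair. In 813-titled cells, 5 of the 43 were called higher (11.6%) and 3 lower (6.98%), against 8.13% higher and 3.48% lower over all genes measured. The genes higher were CDH2, PCDH7, PCDH12, PCDHAC2 and PCDHGB7, and the genes lower were CDH23, CDH4 and PCDH8. By reads of its own exon, PCDHGB7 had a log2 fold of -0.01 and was not called. The log2 fold was above 0 for 27 of the 43 and below 0 for 16. Over all 12254 genes measured it was above 0 for 6216 and below 0 for 6038. The members had a median of 0.24 beside 0.01 over all genes measured. With the trend removed the members' median was 0.04 beside 0.08 over all genes, so that it no longer lay above it. Under the other settings tried it lay between 0.02, for genes of 5 CPM or more, and 0.37, for plain totals. In bulk RNA, fewer cells of a kind and less RNA per cell cannot be told apart. At the edge of the measured set, PCDHGC4, PCDH1 and PCDHAC1 lay just inside, with 28, 22 and 32 pairs in 813-titled cells and 14, 28 and 23 in NT-titled cells. Just outside lay PCDHGA2, PCDH11X and CDH15, with 23, 13 and 21 pairs in 813-titled cells and 13, 21 and 5 in NT-titled cells.

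**Figure D1:**
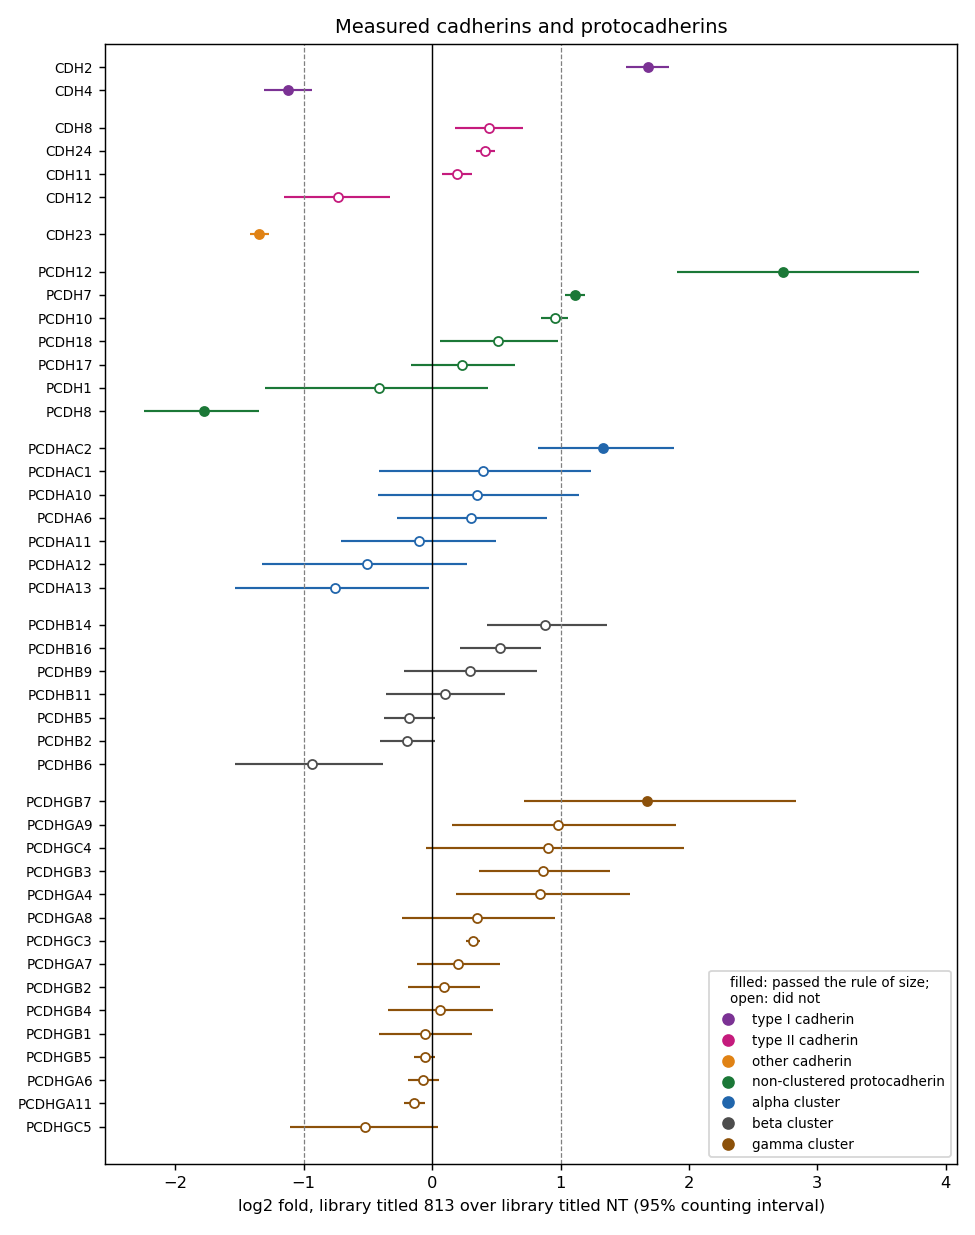
The log2 fold of each of the 43 measured members, 813-titled cells over NT-titled cells, with its 95% counting interval, grouped by family. Filled points passed the rule of size, dashed lines mark 2-fold, and the folds run from -1.77 for PCDH8 to 2.73 for PCDH12.

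**Figure D2:**
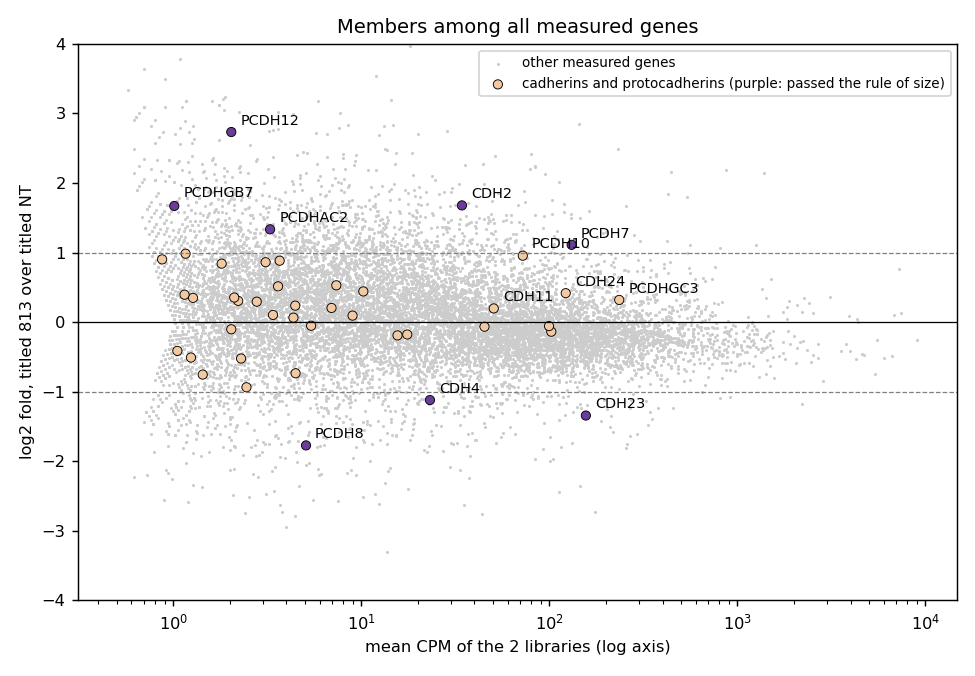
The log2 fold (813 over NT) of every measured gene against the mean CPM of the 2 libraries on a log axis, with the members as large points. Of the called members, CDH2, CDH23, PCDH7 and CDH4 have the higher levels, and PCDHGB7 lies near the limit of 1 CPM. The axis ends at a log2 fold of 4 in either direction, which leaves out 15 genes, none of them a member.

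Among the type I cadherins the 2 measured genes differed in opposite directions. CDH2, or N-cadherin, the classical cadherin of neural and mesenchymal cells, lies at chr18:25530930-25757445 of hg19. It had 1279 pairs (52.3 CPM) in 813-titled cells, against 379 pairs (16.3 CPM) in NT-titled cells, a 3.20-fold difference (log2 fold 1.68, interval 1.51 to 1.85). CDH4, or R-cadherin, first described in retina, lies at chr20:59827482-60515673. It had 357 pairs (14.6 CPM) in 813-titled cells, against 738 pairs (31.8 CPM) in NT-titled cells (log2 fold -1.12, interval -1.31 to -0.94). Per kilobase of exon, CDH2 stood at 12.0 CPM per kb and CDH4 at 2.14 in 813-titled cells, while in NT-titled cells CDH2 stood at 3.74 and CDH4 at 4.67. CDH2 was therefore the higher of the pair in 813-titled cells and the lower in NT-titled cells. The call for CDH4 was lost with plain totals (log2 fold -0.99), with the ratio of the deposited RPKM values (-0.99) and with the trend removed (-0.87), and that for CDH2 was kept in each of these, at 1.37 or more.

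The remaining type I genes were near silence. CDH1, or E-cadherin, the epithelial cadherin, had 1 pair in 813-titled cells and 0 in NT-titled cells. CDH3, or P-cadherin, had 9 and 7 pairs in 813-titled and NT-titled cells. CDH15, the muscle cadherin, had 21 pairs in 813-titled cells and 5 in NT-titled cells (log2 fold 1.896, interval 0.55 to 3.76), at 0.859 CPM below the limit of measurement. Of 6 epithelial markers, CDH1 included, none was measured, with summed levels of 0.572 CPM in 813-titled cells and 0.991 CPM in NT-titled cells.

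None of the 4 measured type II cadherins was called. CDH24, a type II cadherin that binds catenins, had 3418 pairs in 813-titled cells and 2432 in NT-titled cells (log2 fold 0.42, interval 0.34 to 0.49). CDH11, or OB-cadherin, known from osteoblasts and other mesenchymal cells, had 1323 pairs in 813-titled cells and 1096 in NT-titled cells (log2 fold 0.20, interval 0.08 to 0.31). Per kilobase, CDH24 had the highest level of the CDH genes, at 39.3 CPM per kb in 813-titled cells and 29.5 in NT-titled cells, and CDH11 stood at 14.8 and 12.9 in 813-titled and NT-titled cells. With the trend on GC content and length removed, the log2 fold was 0.89 for CDH24 and -0.08 for CDH11. CDH8, known from brain, had 289 and 202 pairs in 813-titled and NT-titled cells, and CDH12, the brain cadherin, had 82 and 130. The log2 folds were 0.44 for CDH8 and -0.74 for CDH12, and with the trend removed that of CDH12 became -1.05 and passed the rule.

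The other type II genes stayed at or under 12 pairs. CDH5, or VE-cadherin, which holds endothelial junctions together, had 2 pairs in 813-titled cells and 8 in NT-titled cells. CDH6, CDH7, CDH10, CDH20 and CDH22 had 12, 8, 7, 6 and 3 pairs in 813-titled cells and 9, 3, 2, 6 and 2 in NT-titled cells.

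CDH23 was the single gene measured in the group of other cadherins, and it was called lower in 813-titled cells. Its protein forms the upper part of the tip link of inner-ear hair cells, where it binds protocadherin 15 from the neighbouring stereocilium. CDH23, at chr10:73156691-73575704 of hg19, had 2161 pairs (88.3 CPM) in 813-titled cells, against 5210 pairs (224 CPM) in NT-titled cells, 2.54-fold lower (log2 fold -1.34, interval -1.42 to -1.27). The call stood under every setting tried, between -1.36 and -1.14. PCDH15, which encodes the partner in the tip link, had no pair in either library. The 4 remaining genes of the group, CDH13 (T-cadherin, which has a lipid anchor in place of a tail), CDH16, CDH17 and CDH26, had 6, 0, 0 and 4 pairs in 813-titled cells and 3, 1, 1 and 0 in NT-titled cells.

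The lower level of CDH23 ran along the whole gene but was larger toward its 3′ end. All 74 exon records of CDH23 had log2 folds below 0, from -2.96 to -0.80. Of the 4 exons listed with an alternative later end, 2 are lengthened by 400 bases or more, and these divide the records into stretches, a division chosen after the values had been seen. The 5 records nested in longer ones were left out, and exon reads were halved for the intervals. The 69 records summed to 5454 reads in 813-titled cells and 13183 in NT-titled cells, against 4322 and 10420 reads by gene. A read that spans several records may be listed in each, and the intervals of exon records and stretches are then too narrow. Whether this made the excess was not tested. The first 13 records, at chr10:73156691-73407219, had 2881 reads in 813-titled cells and 5922 in NT-titled cells (log2 fold -1.11, interval -1.21 to -1.02). The next 12, at chr10:73434869-73467264, had 1405 and 3135 reads in 813-titled and NT-titled cells (log2 fold -1.23, interval -1.36 to -1.10). The last 44, at chr10:73468855-73575704, had 1168 and 4126 reads in 813-titled and NT-titled cells (log2 fold -1.895, interval -2.03 to -1.76). Read density stepped down along the gene in both libraries, at 20.3, 13.6 and 2.74 CPM per kb in 813-titled cells and 44.1, 31.9 and 10.2 in NT-titled cells. In both libraries the first 2 stretches held most of the reads. A 149-base stretch of the last part overlaps an exon of C10orf105, whose own record had 266 reads in 813-titled cells and 836 in NT-titled cells. The strand setting is not given in the sources used here, so reads of that stretch cannot be told apart.

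**Figure D3:**
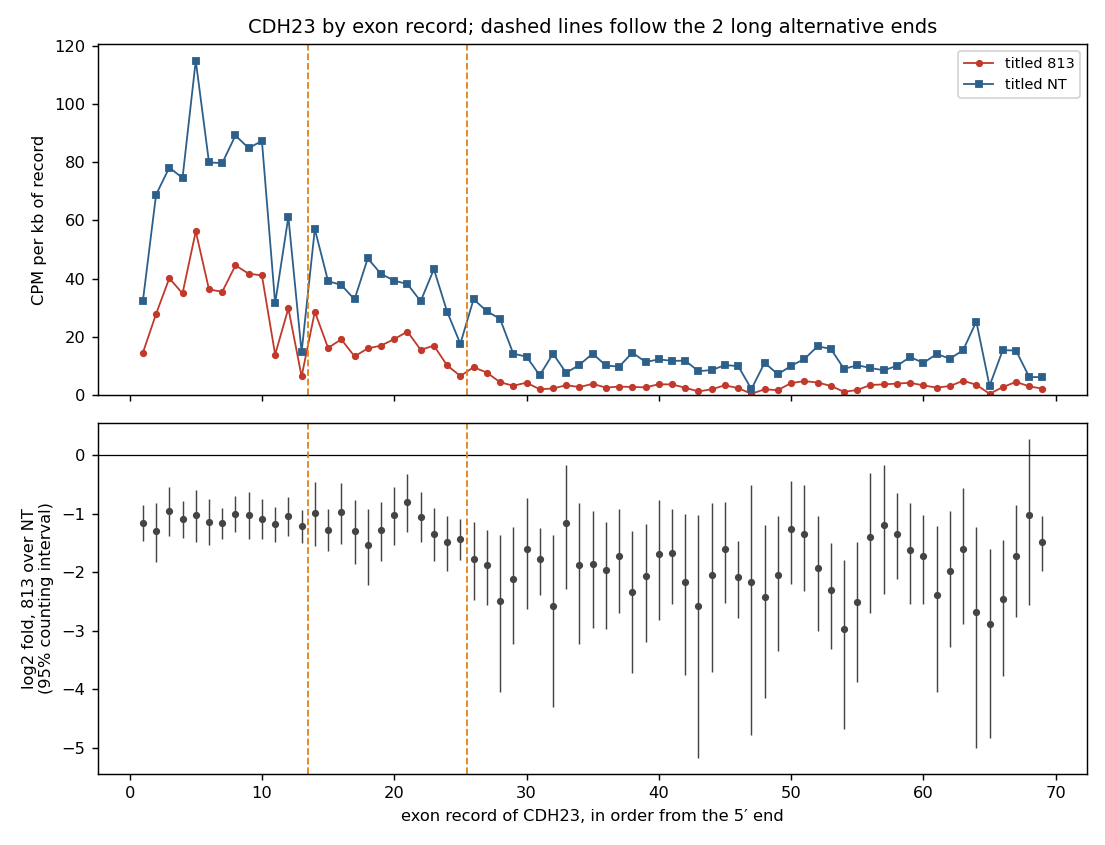
CDH23 by exon record from the 5′ end: CPM per kb of record in each library above, and the log2 fold (813 over NT) with its 95% counting interval below. Dashed lines follow 2 of the 4 alternative ends, those that lengthen an exon by 400 bases or more. Mean density is lower after each line in both libraries, and the points lie lower after the second, at -1.895 over the last 44 records against -1.11 over the first 13.

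Exon by exon, few members departed from the rest of their gene. Over all genes, 92852 exon records could be set against the other records of their gene. Of these, 209 (0.225%) departed upward and 184 (0.198%) downward by 2-fold or more with intervals apart. Outside the alpha and gamma clusters, 162 member exon records were compared, and 0 departed upward and 5 downward, all of them in the last stretch of CDH23. Of these 5, 2 are records of the same exon, one nested in the other. In the alpha and gamma clusters the records compared are those of a gene's own exon and of the exons shared by the cluster. A shared exon enters once for each gene that lists it, so the 160 records compared there are not separate exons. A nested copy of a record also stays among the records it is set against. Of the 160, 2 departed, both of them records of the own exon of PCDHA13, one nested in the other. CDH2 had log2 folds between 1.34 and 1.99 in all 16 of its records, and CDH4 had folds below 0 in all 18. All 14 records of CDH24 and 12 of the 13 of CDH11 lay above 0.

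Outside the clusters, 7 of 12 protocadherins were measured, with a median log2 fold of 0.51. In 813-titled cells 2 were called higher (28.6%) and 1 lower (14.3%), against 8.13% and 3.48% over all genes measured. PCDH7, whose tail is known to bind protein phosphatase 1, lies at chr4:30722030-31148423 of hg19. It had 4395 pairs (179.7 CPM) in 813-titled cells, against 1931 pairs (83.2 CPM) in NT-titled cells (log2 fold 1.11, interval 1.03 to 1.19). PCDH10, whose tail draws the WAVE complex through NCKAP1, lies on the same chromosome at chr4:134070470-134112732. It had 2332 pairs (95.3 CPM) in 813-titled cells, against 1142 pairs (49.2 CPM) in NT-titled cells (log2 fold 0.95, interval 0.85 to 1.06). PCDH10 thus fell just short of 2-fold, and passed the rule with plain totals (1.09) and with the RPKM ratio (1.08). With the trend removed, both were smaller, at 0.64 for PCDH7, which was then not called, and 0.58 for PCDH10. Their longest GENCODE release 29 transcripts hold 41.5% and 41.9% GC.

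Both genes were higher along their length. All 6 records of each had log2 folds above 0. The large first record of PCDH7 had 7804 reads in 813-titled cells and 3459 in NT-titled cells (log2 fold 1.10), and its later records had 866 and 348 reads in 813-titled and NT-titled cells (1.24). For PCDH10 the first record had 3405 and 1762 reads in 813-titled and NT-titled cells (log2 fold 0.87, interval 0.76 to 0.99), and the later records had 1354 and 544 (1.24, interval 1.03 to 1.45). The first record of each gene holds the extracellular domain, and its reads outnumbered those of the later records in both libraries.

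PCDH8 and PCDH12 had far fewer pairs. PCDH8, the paraxial protocadherin, whose rat counterpart brings N-cadherin into the cell after neuronal activity, lies at chr13:53418109-53422775. It had 56 pairs (2.29 CPM) in 813-titled cells, against 183 pairs (7.88 CPM) in NT-titled cells (log2 fold -1.77, interval -2.24 to -1.34). All 4 of its exon records lay below 0. PCDH12, once named VE-cadherin-2 and known from endothelium and placenta, lies at chr5:141324530-141338627, past the gamma cluster. It had 87 pairs (3.56 CPM) in 813-titled cells, against 12 pairs (0.517 CPM) in NT-titled cells, 6.65-fold higher (log2 fold 2.73, interval 1.91 to 3.79). PCDH12 was the only measured member with a difference of 4-fold or more, and it stood at 2.60 or more under every setting that kept it in the test. It was too low for a filter at 5 CPM.

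Endothelial genes were looked at beside PCDH12 and CDH5. Of the 6 endothelial markers 3 were measured, and the summed level of the list was 7.03 CPM in 813-titled cells and 3.88 CPM in NT-titled cells. KDR, the VEGF receptor, had 52 pairs in 813-titled cells and 5 in NT-titled cells (log2 fold 3.18, interval 1.99 to 4.98) and was the only marker of the list called. EMCN had 86 and 59 pairs in 813-titled and NT-titled cells, and PECAM1 had 28 and 18. The defining endothelial genes TEK and TIE1 had 0 and 1 pairs in 813-titled cells and none in NT-titled cells, VWF had 5 and 8 in 813-titled and NT-titled cells, and CDH5 had 2 and 8. The part of endothelial transcripts in the PCDH12 difference was not tested.

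The other protocadherins outside the clusters differed less. PCDH17, known in mouse from the basal ganglia, had 118 pairs in 813-titled cells and 95 in NT-titled cells (log2 fold 0.24, interval -0.16 to 0.64). PCDH18, which in mouse binds the adaptor Dab1, had 104 and 69 pairs in 813-titled and NT-titled cells (log2 fold 0.51, interval 0.06 to 0.98). PCDH1, known from airway epithelium, had 22 and 28 (log2 fold -0.42, interval -1.30 to 0.43). By its largest exon record PCDH1 lay on the other side of 0, so its direction is uncertain. That record had 58 reads in 813-titled cells and 45 in NT-titled cells (0.285, interval -0.55 to 1.15), against 44 and 56 by gene. Below 1 CPM, PCDH9, PCDH11X, PCDH19 and PCDH20 had 4, 13, 4 and 14 pairs in 813-titled cells and 2, 21, 0 and 10 in NT-titled cells. PCDH11X shares 57.3% of its 50-base words with another gene, so its count is uncertain.

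The clustered protocadherins differed little in sum. Of the 29 measured, 2 were called higher (6.9%) and 0 lower, against 8.13% and 3.48% over all genes measured. Of these 2, PCDHGB7 was not called by reads of its own exon. The gamma cluster had 13343 pairs in 813-titled cells and 11645 in NT-titled cells (log2 fold 0.12, interval 0.08 to 0.16). For the beta cluster the sums were 1367 pairs in 813-titled cells and 1282 in NT-titled cells (0.02, interval -0.09 to 0.13), and for the alpha cluster 411 and 327 (0.25, interval 0.04 to 0.47). These sums move by the shift between scalings, which was -0.14 on the log2 scale for TMM relative to plain totals, and the gamma and beta sums lie within that size of 0. The median log2 fold of measured clustered genes was 0.20, and it was -0.06 among those of 5 CPM or more and 0.05 when only reads of each gene's own exon were used.

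By gene counts, gamma transcripts came mostly from few of the 23 genes. PCDHGC3, PCDHGB5, PCDHGA11 and PCDHGA6, whose joints and promoters are printed above, held 91.7% of gamma pairs in 813-titled cells (exact binomial interval 91.3 to 92.2%) and 92.6% in NT-titled cells (92.1 to 93.1%). PCDHGC3, a C-type gene that is known to be expressed more widely than the others, had 6388 pairs in 813-titled cells and 4862 in NT-titled cells (log2 fold 0.32, interval 0.26 to 0.37). PCDHGB5 had 2388 and 2359 pairs in 813-titled and NT-titled cells (log2 fold -0.06), PCDHGA11 had 2385 and 2492 (-0.14), and PCDHGA6 had 1080 and 1074 (-0.07). PCDHGC3 thus took 47.9% of gamma pairs in 813-titled cells (47.0 to 48.7%) and 41.8% in NT-titled cells (40.9 to 42.7%). The share of PCDHGA11 was 17.9% in 813-titled cells and 21.4% in NT-titled cells, that of PCDHGB5 17.9% and 20.3%, and that of PCDHGA6 8.09% and 9.22%. Shares within a cluster do not depend on the scaling of the libraries, but they depend on which reads are counted. The intervals above cover counting error only. By own-exon reads, PCDHGC3 had 12498 of 29377 gamma reads in 813-titled cells and 9589 of 26336 in NT-titled cells. The share of each of PCDHGC3, PCDHGB5, PCDHGA11 and PCDHGA6 was lower by these reads than by gene counts, in both libraries. Their joint share was then no longer the lower in 813-titled cells. The gene counts were also divided by the length of each gene's own exon. In 813-titled cells and NT-titled cells this gave 93.5 and 75.0 CPM per kb for PCDHGC3 and 39.7 and 41.4 for PCDHGB5. It gave 31.3 and 34.4 for PCDHGA11, and 18.0 and 18.8 for PCDHGA6.

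The other 11 measured gamma genes had at most 227 pairs in either library. PCDHGB2, PCDHGA7, PCDHGB1 and PCDHGB4 had 227, 182, 130 and 109 pairs in 813-titled cells and 202, 150, 128 and 99 in NT-titled cells. PCDHGB3 had 98 and 51 pairs in 813-titled and NT-titled cells (log2 fold 0.86), and PCDHGA4 had 57 and 30 (0.84). PCDHGA8 had 58 and 43 pairs in 813-titled and NT-titled cells, PCDHGC5 had 46 and 63, PCDHGA9 had 38 and 18, and PCDHGC4 had 28 and 14. PCDHGB7 had 38 pairs in 813-titled cells and 11 in NT-titled cells (log2 fold 1.67, interval 0.72 to 2.83) and was the only gamma gene called. The 8 remaining gamma genes had between 1 and 23 pairs in 813-titled cells and between 2 and 13 in NT-titled cells.

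The call for PCDHGB7 depended on which reads were counted. Its own exon had 233 reads in 813-titled cells and 222 in NT-titled cells in the exon table (log2 fold -0.01, interval -0.39 to 0.38), while the gene table gave it 76 and 22 reads. How exon reads were assigned is not given in the sources used here. Across the gamma cluster, the reads that the exon table held beyond the gene table lay between -91 and 49 for the genes before PCDHGB4 and were larger for most genes further along. They came to 380 in 813-titled cells and 435 in NT-titled cells for PCDHGB4, 157 and 200 for PCDHGB7, 265 and 294 for PCDHGA12, and 485 and 462 for PCDHGC4. Where the gene table holds few pairs, as in PCDHGB7, PCDHGA9, PCDHGC4 and PCDHGA12, these reads outnumber the gene's own, and the log2 folds by own-exon reads were -0.01, -0.08, 0.07 and -0.14. For PCDHGC3, PCDHGB5, PCDHGA11 and PCDHGA6 the own-exon folds were 0.31, -0.06, -0.14 and -0.04, within 0.03 of those from gene counts.

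**Figure D4:**
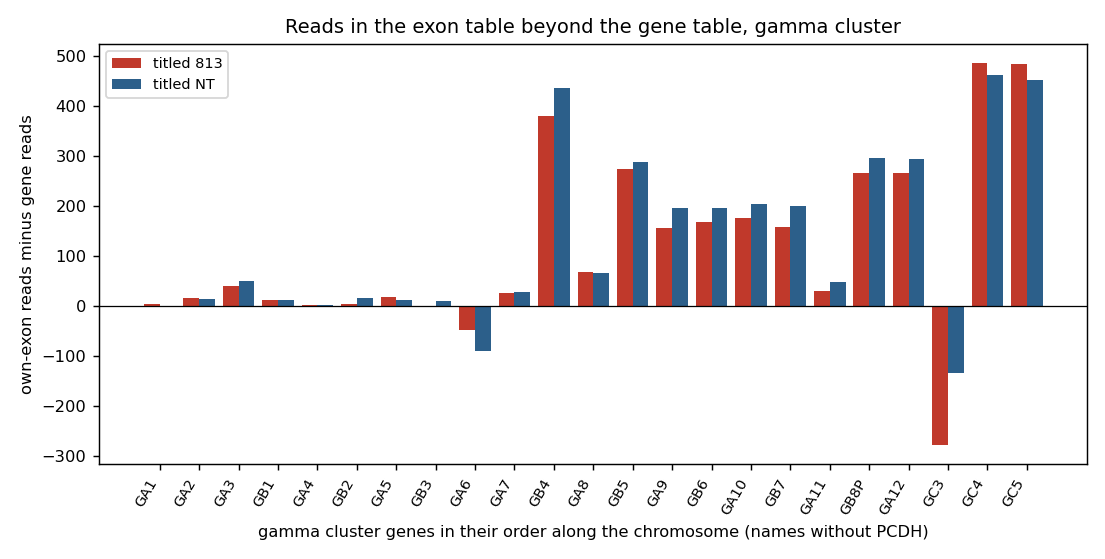
Reads in the exon table for each gamma gene's own exon minus the reads in the gene table, in each library, with the genes in their order along the chromosome. The difference is small for the first genes, reaches 380 and 435 reads for PCDHGB4 in 813-titled and NT-titled cells, and is negative for PCDHGC3 and PCDHGA6.

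Summed over the gamma genes, gene counts came to 26686 reads in 813-titled cells and 23290 in NT-titled cells, and the reads of their own exons to 29377 in 813-titled cells and 26336 in NT-titled cells. The shared exons are described separately. The last gamma exon, listed for 21 genes at chr5:140890514-140892546 of hg19, had 24935 reads in 813-titled cells and 21743 in NT-titled cells (log2 fold 0.12, interval 0.08 to 0.16), close to that of the sum over the gamma genes. The short gamma exons of 59 and 89 bases had 1166 and 1468 reads in 813-titled cells and 1207 and 1524 in NT-titled cells, with log2 folds of -0.13 and -0.13. The last alpha exon, at chr5:140389212-140391929, had 615 reads in 813-titled cells and 443 in NT-titled cells (log2 fold 0.40, interval 0.14 to 0.65).

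In the alpha cluster PCDHAC2 stood out. PCDHAC2, the last alpha gene and a C-type gene like PCDHGC3, had 115 pairs (4.70 CPM) in 813-titled cells, against 43 pairs (1.85 CPM) in NT-titled cells (log2 fold 1.33, interval 0.83 to 1.88). Its own exon, where the exon and gene tables differed by at most 3 reads, gave 227 and 87 reads in 813-titled and NT-titled cells (log2 fold 1.30, interval 0.79 to 1.85). PCDHAC2 held 28.0% of alpha pairs in 813-titled cells (23.7 to 32.6%) and 13.2% in NT-titled cells (9.68 to 17.3%). The other measured alpha genes were not called. PCDHA6 had 60 pairs in 813-titled cells and 46 in NT-titled cells, PCDHA11 had 48 and 49, PCDHA10 had 35 and 26, and PCDHAC1 had 32 and 23. Lower in 813-titled cells were the counts of PCDHA13, with 26 and 42 pairs in 813-titled and NT-titled cells (log2 fold -0.76, interval -1.53 to -0.03), and of PCDHA12, with 25 and 34 (-0.51). The 8 alpha genes below 1 CPM had at most 18 pairs, which was the count of PCDHA7 in 813-titled cells, against 3 in NT-titled cells (log2 fold 2.33, interval 0.73 to 4.92). PCDHA7 passed the rule of size when no filter was used.

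**Figure D5:**
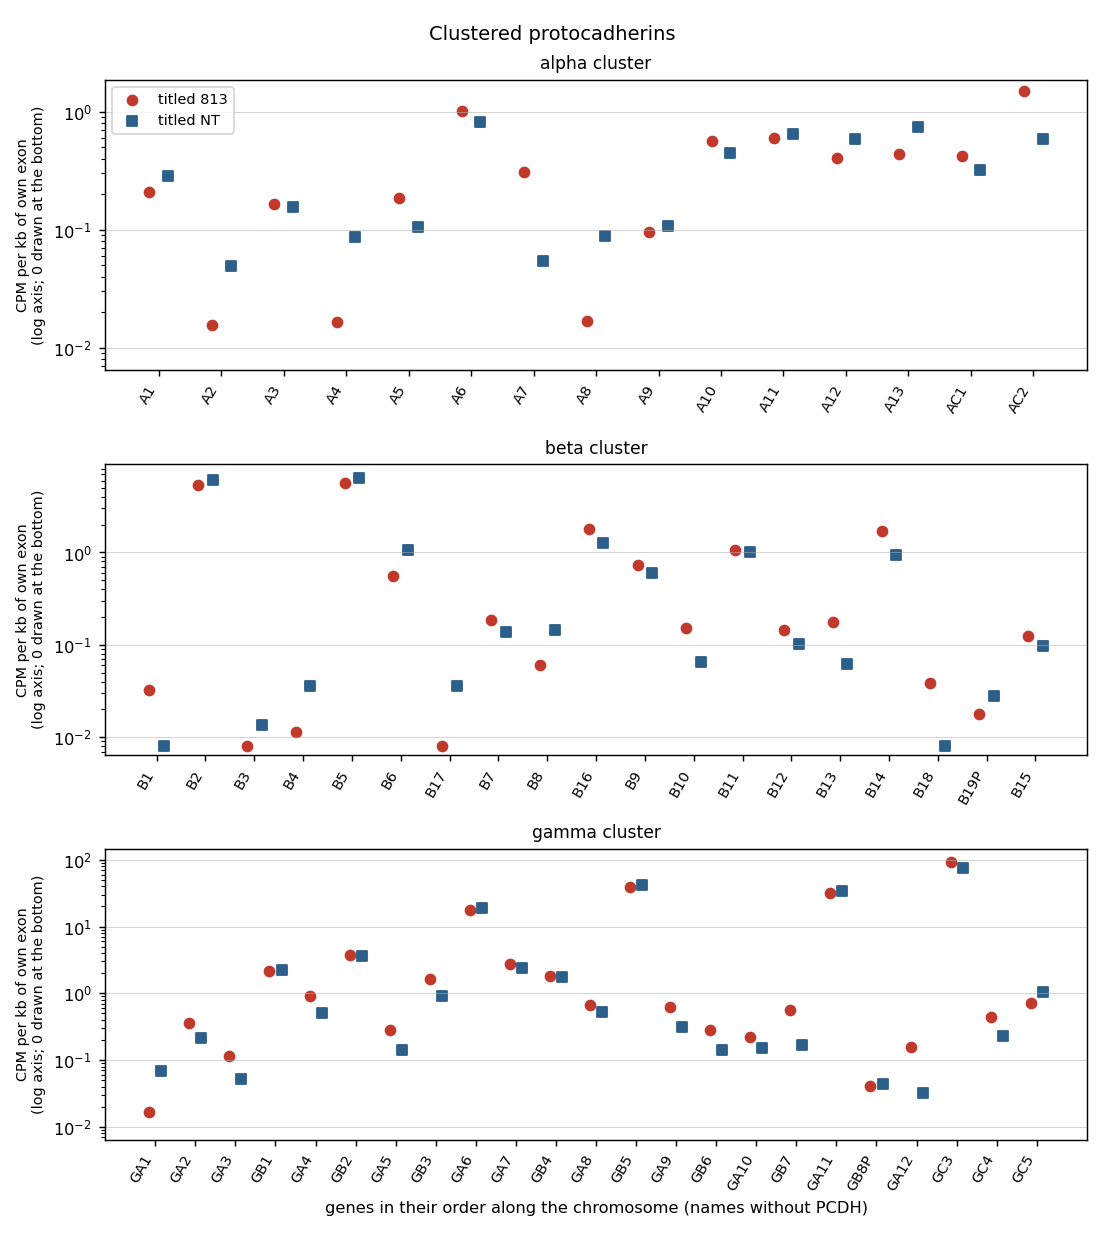
CPM per kilobase of each clustered gene's own exon on a log axis, from gene counts, in 813-titled cells (circles) and NT-titled cells (squares), with genes in chromosome order and 0 drawn at the bottom. PCDHGC3, PCDHGB5, PCDHGA11 and PCDHGA6 lie above the rest of the gamma cluster in both libraries, and PCDHAC2 is the alpha gene whose points lie farthest apart among those measured.

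None of the 7 measured beta genes was called. PCDHB5 had 403 pairs in 813-titled cells and 433 in NT-titled cells (log2 fold -0.18), and PCDHB2 had 356 and 386 (-0.19). PCDHB16 had 213 and 140 pairs in 813-titled and NT-titled cells (log2 fold 0.53, interval 0.22 to 0.85), and PCDHB14 had 117 and 60 (0.88, interval 0.43 to 1.36). PCDHB6 was on the other side, with 41 pairs in 813-titled cells and 75 in NT-titled cells (log2 fold -0.94, interval -1.53 to -0.38). PCDHB11 had 86 and 76 pairs in 813-titled and NT-titled cells, and PCDHB9 had 75 and 58. The share of beta pairs from PCDHB14 was 8.56% in 813-titled cells and 4.68% in NT-titled cells, and that from PCDHB16 15.6% and 10.9%. The 12 beta genes below 1 CPM had at most 17 pairs. Beta genes resemble one another closely, and 10.4% of the 50-base words of PCDHB14 and 45.8% of those of PCDHB8, for example, occur in another gene. PCDHB3 had 0 and 2 reads in the gene table for 813-titled and NT-titled cells but 45 and 41 in the exon table, so low beta counts are uncertain.

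Of the catenins and linkers of cell junctions, plakophilins included, 11 of 15 genes listed were measured, with a median log2 fold of 0.19. Of these, 2 were called higher (18.2%) and 1 lower (9.09%). For this list and those below, the shares over all genes measured were 8.13% higher and 3.48% lower. CTNNB1, beta-catenin, had 1295 pairs in 813-titled cells and 461 in NT-titled cells (log2 fold 1.41, interval 1.26 to 1.57). MLLT4, or afadin, which links nectins and actin, had 1008 and 371 pairs in 813-titled and NT-titled cells (log2 fold 1.37, interval 1.19 to 1.54). JUP, plakoglobin, which can take the place of beta-catenin at the cadherin tail, had 987 pairs in 813-titled cells and 3335 in NT-titled cells (log2 fold -1.83, interval -1.94 to -1.73). The genes of the list with the most pairs were PKP1, a desmosomal plaque protein, with 47954 and 68113 pairs in 813-titled and NT-titled cells (log2 fold -0.58), VCL, vinculin, with 10785 and 8977 (0.19), and CTNNA1, alpha-catenin, with 10479 and 9764 (0.03). With the trend removed CTNND1, or p120-catenin, and PKP2 were called lower as well, at -1.29 and -1.04.

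Of the desmosomal and atypical cadherins and related genes, 11 of 25 were measured, with 2 called higher and 3 lower and a median log2 fold of -0.07. FAT1 had 2222 pairs in 813-titled cells and 950 in NT-titled cells (log2 fold 1.15), and FAT4, a receptor for dachsous cadherins, had 369 and 125 (1.48). The calsyntenins CLSTN2 (log2 fold -1.02) and CLSTN3 (-1.39) and the planar polarity cadherin CELSR1 (-1.45) were called lower, with 1097, 194 and 249 pairs in 813-titled cells and 2111, 483 and 645 in NT-titled cells. CLSTN1 had 7496 and 8857 pairs in 813-titled and NT-titled cells, CELSR2 had 7362 and 7745, and RET, a receptor kinase with cadherin repeats, had 4460 and 4054. CLSTN2 was not called with plain totals (-0.88), nor FAT1 (0.65) and FAT4 (0.94) with the trend removed. No desmocollin or desmoglein gene was measured.

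Among transcription factors known to act on classical cadherin genes, 7 of 10 were measured, with 1 called in each direction and a median log2 fold of 0.72. SNAI2, a repressor of CDH1, had 66 pairs in 813-titled cells and 12 in NT-titled cells (log2 fold 2.34, interval 1.48 to 3.41), and SNAI3 had 13 and 47 (-1.89, interval -2.94 to -1.02). TCF3, TWIST1 and TCF4 had 11568, 976 and 332 pairs in 813-titled cells and 14115, 560 and 178 in NT-titled cells, with log2 folds of -0.36, 0.73 and 0.82. SNAI3 (-1.40) was not called with the trend removed and TWIST1 (1.06) was, and SNAI2 and SNAI3 were too low for a filter at 5 CPM. All 15 listed chromatin regulators of the clustered protocadherins were measured, and WAPAL, which releases cohesin from chromatin, was the only one called, with 256 pairs in 813-titled cells and 109 in NT-titled cells (log2 fold 1.15). With the trend removed, which took the median GC content for WAPAL as it had none of its own, WAPAL was at 0.92 and not called, and STAG2, a cohesin subunit, was called lower at -1.025. The median of that list was -0.25. DNMT1, EHMT2 and SMC1A, its genes with the most pairs, had log2 folds of -0.28, -0.50 and 0.33, and CTCF had 1816 and 1435 pairs in 813-titled and NT-titled cells (0.26).

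All 8 genes of the proteases that cleave cadherins were measured, with 2 called higher, 1 lower and a median log2 fold of 0.44. ADAM10, which sheds N-cadherin and gamma protocadherins, had 175 pairs in 813-titled cells and 81 in NT-titled cells (log2 fold 1.03), and APH1B of the gamma-secretase complex had 340 and 133 (1.28). PSEN2, a catalytic subunit of that complex, had 149 and 344 pairs in 813-titled and NT-titled cells (log2 fold -1.28). APH1A, NCSTN and PSENEN had log2 folds of -0.35, 0.44 and 0.03. Removing the trend ended the calls of ADAM10 (0.87) and APH1B (0.97), and with plain totals ADAM17, which also sheds cadherins, was called at 1.10. Of the 12 signalling partners of protocadherins, all were measured and PTK2, the focal adhesion kinase that binds the shared tails of alpha and gamma protocadherins, was the only one called, with 2001 pairs in 813-titled cells and 920 in NT-titled cells (log2 fold 1.05). PTK2 was not called with the trend removed (0.72). The median of that list was 0.19, and CYFIP1, RET and TAOK2 had log2 folds of 0.09, 0.06 and -0.25.

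Markers of further cell types were read for the same libraries. Of 6 leukocyte markers 3 were measured, with summed levels of 13.4 CPM in 813-titled cells and 14.4 CPM in NT-titled cells. These came mostly from CD68, at 11.2 and 11.7 CPM. PTPRC had 0 and 1 pairs, and ITGAM was called lower (log2 fold -1.73). Of 6 fibroblast markers 4 were measured and none called, with sums of 2979 and 2467 CPM in 813-titled and NT-titled cells that came mostly from COL1A2. Of 6 neuronal markers 4 were measured, with sums of 241.9 and 374.7 CPM in 813-titled and NT-titled cells. These came mostly from TUBB3, at 226.1 and 362.9 CPM (log2 fold -0.68). RBFOX3, with 8 and 48 pairs, was called lower (log2 fold -2.59), while SYT1 and SNAP25 lay above 0, at 0.89 and 0.07. Of 5 markers of HEK293 cells, the kind that made the virus, 4 were measured. Their sums were 32.7 and 26.1 CPM in 813-titled and NT-titled cells. TFAP2A held most of these, at 24.1 and 13.6 CPM (log2 fold 0.82). GATA3, with 33 and 93 pairs, was called lower (log2 fold -1.56), NEFL was at -0.81 and NEFM at 0.41. ITGAM, RBFOX3, GATA3 and KDR were too low for a filter at 5 CPM, and the neuronal marker SYT1 was called with plain totals (1.02). The part of such transcripts in the members' differences was not tested.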

How the data were processed

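Poly(A) RNA-seq of 2 libraries was used. The authors deposited, per the file headers, a raw read count and an RPKM value for each gene and each exon. The authors' RPKM value is the count per kilobase and per total reads, with totals of 60848394 reads for 813-titled cells and 63156235 for NT-titled cells, as recomputed here. The submitters' processing notes name CASAVA 1.9, TopHat2 2.0.6, HTSeq and hg19, without roles. For the annotation and strand, nothing was given in the sources used here.

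From 23398 gene rows 46 repeats were dropped. TMM scaling (edgeR 4.0.16, R 4.3.3; DESeq2 1.42.0 size factors as an alternative) gave factors of 1.05 and 0.954 for 813-titled and NT-titled cells, hence 24461352 and 23213627 effective pairs. Log2 folds carry a prior of 0.5 pairs, with exact Clopper-Pearson intervals (Python 3.11.15, scipy 1.17.1, numpy 2.4.6, pandas 2.3.3, matplotlib 3.10.9) for counting error alone (PCR duplicates make reads less than independent). The edgeR quasi-likelihood test could not be fitted with 1 library per group, and no p-value was computed. Exons with 50 reads or more in genes with 200 or more were set against the other records of their gene.

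Every measured member is given with both values, and from each list every called gene and up to 3 further genes with the most pairs. The members, lists and rules were chosen with earlier results of these data known. MLLT4 and WAPAL are the tables' symbols for AFDN and WAPL. Sequences came from GENCODE 29 and RefSeq (GRCh38.p14), and file coordinates are hg19.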

Additional observations from a re-analysis of the deposited data

How the results depend on the processing

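No paired analysis was possible because each group holds 1 library, and for the same reason no library could be left out. For the members, 341 of 373 values under other settings stayed within the counting interval of the value reported, and 31 values of 14 genes moved beyond it. With no filter, with a filter at 5 CPM and with unhalved counts, a gene's log2 fold equals the reported one by construction. Such values are among the 341 and say nothing of stability. Of the called members PCDHGB7 alone changed sign, at -0.0057 by reads of its own exon. Over all members, 19 values of 12 genes had the opposite sign to the value reported, among them PCDHGA9 at -0.08 by its own exon, CDH11 at -0.08 with the trend removed, and PCDHGA6 at 0.07 and PCDHGB5 at 0.08 with plain totals. The members called higher numbered 5, or 6 with plain totals, with no filter and by RPKM ratio, 4 with the trend removed, 2 with a filter at 5 CPM, where PCDH12, PCDHAC2 and PCDHGB7 fall below it, and 3 without the clustered protocadherins. The members called lower numbered 2 or 3 under each setting run. Calls that depended on a setting were those of PCDH10 (gained), CDH4, PCDH7 and CDH12, whose values stand in the report, and of PCDHA7, gained at 2.33 with no filter. The cause of the differences between settings was not tested. Over all genes, 996 were called higher and 427 lower, 1330 and 302 with plain totals, 1313 and 306 by RPKM ratio, and 772 and 311 with the trend on GC content and length removed, for which GC content was known for 89.9% of measured genes. The intervals of low clustered genes span more than 2-fold, as for PCDHA6 at 60 pairs in 813-titled cells and 46 in NT-titled cells (log2 interval -0.27 to 0.89), so these genes cannot be ranked, and a spread between cultures was not measured.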
